A study of Mus musculus with 6 samples.

Results

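Scavenger and efferocytosis receptors are the surface and endosomal proteins with which macrophages bind modified lipoproteins, microbes, glycoproteins and dying cells. A total of 10 genes was chosen by name for this account from the 49492 rows of the deposited count table, and all 10 had a row. They are Msr1, Marco, Scarb1, Olr1, Cd68, Stab1, Mrc1, Cd163, Mertk and Axl. Their mRNA was read from stranded sequencing libraries of RAW264.7, a macrophage-like cell line from mouse that grows in culture. The cells were transfected for 48 h with 50 nM of an siRNA against Ep300 (labelled Ep300 silenced) or with the same dose of a control siRNA (labelled WT), 3 libraries each. Ep300 encodes p300, a lysine acetyltransferase that acts as a transcriptional coactivator. Both groups are of 1 cell line, and no sample is labelled as untransfected cells.

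Scavenger receptors are grouped in classes by structure rather than by ligand. Class A members such as Msr1 and Marco carry a collagen-like stalk, class B members such as Scarb1 span the membrane at both ends, and Olr1 is a C-type lectin-like receptor for oxidised lipoprotein. Efferocytosis, the uptake of apoptotic cells, depends in macrophages on the receptor tyrosine kinases Mertk and Axl. These bind phosphatidylserine through bridging proteins, Gas6 for both kinases and protein S for Mertk. Mrc1 and Cd163 are often used as markers of alternatively activated tissue macrophages.

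The siRNA target was lower in every Ep300 siRNA library. Ep300 (GRCm38 chromosome 15, 81585351 to 81652077) was at 51.1, 59.0 and 54.9 CPM against 106.8, 115.3 and 118.4 CPM in control siRNA replicates 1, 2 and 3, where CPM is the count scaled by effective library size. This was a fold of 0.485 (edgeR adjusted p = 3.62e-05). Total counts ran from 29993567 to 45377510 per library. All 10 macrophage markers examined were high enough to test, with Cd84 alone of them past the threshold, downwards (log2 fold change −0.56 ± 0.15, SE). Of 26 markers of lymphocytes, endothelium, stroma, epithelium and other blood cells, 22 were too low to test and 5, the T cell marker Cd8a among them, had no count. The 26 together held 5.83 to 7.23 CPM in the Ep300 siRNA libraries and 5.52 to 6.81 CPM in the controls. The largest part was Zbtb46, a marker of dendritic cells, at 3.22 to 5.15 CPM per library, which was tested and did not pass. Ep300 siRNA replicate 1 stood apart from the other libraries. Its level of Gm42418, whose annotation covers ribosomal RNA sequence, was 5823 CPM against 1327 to 2174 CPM elsewhere, and its score on the first principal component was −29.7, where those of Ep300 siRNA replicates 2 and 3 were −13.8 and −8.88. Results for the receptors are therefore also given without it. Separate cultures are not stated in the labels for the 3 libraries of a group. The p-values therefore reflect the spread among these libraries alone, and that spread may be technical.

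None of the receptors passed the test after Ep300 silencing. Of the 10, 7 were high enough to test, and at an edgeR adjusted p under 0.05 none rose and none fell. Over the 15741 genes tested, 2.76% rose, 4.02% fell and 6.78% changed in either direction. At an unadjusted p under 0.05 the receptors that passed numbered 3 of 7, Olr1, Scarb1 and Stab1, against 22.2% of all genes. DESeq2 on the same genes called 1 receptor, Olr1, and limma-voom called none. Over all 15741 genes, 617 rose and 712 fell by DESeq2, and 440 rose and 603 fell by limma-voom. The median log2 fold change of the 7 receptors was −0.11, and that of all genes tested was −0.004. Log2 fold changes were negative for 4 receptors and positive for 3. In bulk RNA, fewer cells with a transcript and less of it per cell cannot be told apart. Scaled by library size alone, the genes of the whole table split into 316 that rose and 788 that fell, against 435 and 633 with the TMM scaling used here.

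**Figure D1:**
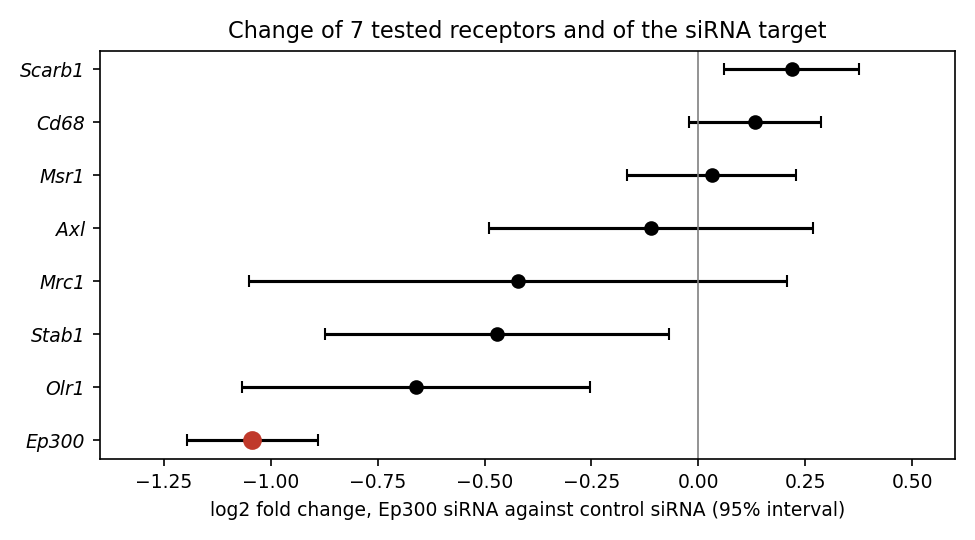
Log2 fold change (x axis) of the 7 receptors high enough to test and of Ep300, each with its 95% interval from edgeR. The red point marks an adjusted p under 0.05, which Ep300 alone reached, and the receptors run from −0.66 for Olr1 to 0.22 for Scarb1.

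The 95% intervals show what sizes of change these libraries allow. Like the p-values, they reflect the spread among these libraries alone, which may be technical. They are not adjusted for the number of genes tested. For 5 of the 7 tested receptors the interval lay wholly within a 2-fold change in either direction. For Msr1, Scarb1, Cd68 and Axl, 4 of the 7, it also lay within 1.5-fold. The intervals of Olr1 and Mrc1 reached beyond a 2-fold fall.

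Among the class A receptors, Msr1 was abundant and Marco had no count. Msr1 (chromosome 8, 39581685 to 39642673, minus strand) encodes the macrophage scavenger receptor that takes up acetylated and oxidised lipoprotein. It was at 330.3, 389 and 413 CPM in Ep300 siRNA replicates 1, 2 and 3 and at 340.3, 405 and 362 CPM in control siRNA replicates 1, 2 and 3. The groups overlapped, with the lowest and the highest library both in the Ep300 siRNA group. The fold was 1.02 (95% interval 0.891 to 1.17; log2 fold change 0.03 ± 0.09, SE; edgeR adjusted p = 0.883). The sign of so small a value turned with library sizes alone and without either Ep300 siRNA replicate 3 or control siRNA replicate 1, and without Ep300 siRNA replicate 1 it was 0.127. Marco (chromosome 1, 120474538 to 120505024, minus strand), a receptor for bacteria and particles, was at 0 counts in all 6 libraries. If each count were an independent event, a count of 0 would allow up to 3 counts, or 0.0648 to 0.102 CPM depending on the library. Even numbers made up 79.8% to 80.9% of counts from 1 to 4, so counts may not be independent and these limits may be too low. These limits cover counting error only.

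Scarb1 (chromosome 5, 125277087 to 125341094, minus strand), the class B receptor that takes up cholesteryl ester from high-density lipoprotein, was the tested receptor with the highest fold. It was at 45.6, 42.7 and 42.3 CPM in Ep300 siRNA replicates 1, 2 and 3 and at 40.4, 37.3 and 34.5 CPM in the controls. Every Ep300 siRNA library lay above every control library. The fold was 1.16 (95% interval 1.04 to 1.30; log2 fold change 0.22 ± 0.07, SE), and the edgeR adjusted p was 0.0969. Among the 15 alternatives it passed only without control siRNA replicate 1, the highest control (log2 fold change 0.283, edgeR adjusted p = 0.0381), and was at 0.193 without Ep300 siRNA replicate 1.

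Cd68 (chromosome 11, 69664213 to 69666153, minus strand) encodes a heavily glycosylated protein of late endosomes and lysosomes and is a common macrophage marker. It was at 859.8, 790.3 and 774 CPM in Ep300 siRNA replicates 1, 2 and 3 and at 773, 745 and 692 CPM in the controls. The groups did not overlap, but the lowest Ep300 siRNA library and the highest control were nearly level. The fold was 1.10 (95% interval 0.986 to 1.22; log2 fold change 0.13 ± 0.07, SE; edgeR adjusted p = 0.3). Scarb1 and Cd68 were the 2 receptors for which all Ep300 siRNA libraries lay above all controls, an arrangement seen for 13.0% of all genes tested. Without Ep300 siRNA replicate 1, the highest library for both, the log2 fold change of Cd68 was 0.096.

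Olr1 (chromosome 6, 129485244 to 129507165, minus strand), which encodes the lectin-like oxidised lipoprotein receptor LOX-1, came nearest to the threshold. It was at 3.14, 4.93 and 4.56 CPM in Ep300 siRNA replicates 1, 2 and 3 and at 6.57, 8.11 and 5.42 CPM in the controls, from 92 to 304 counts per library. Every Ep300 siRNA library lay below every control, which 14.4% of all genes tested also showed and no other receptor did. The means were 4.21 ± 0.947 and 6.70 ± 1.35 CPM (SD, n = 3), a fold of 0.633 (95% interval 0.477 to 0.839). The log2 fold change was −0.66 ± 0.19 (SE), lower than in all but 2.91% of genes tested, and the edgeR adjusted p was 0.0572. The call turned with the setting. Olr1 passed by DESeq2 (adjusted p = 0.0121), with library sizes alone (edgeR adjusted p = 0.0484), with no filter on low counts (edgeR adjusted p = 0.00021) and without control siRNA replicate 3 (edgeR adjusted p = 0.046), while limma-voom gave an adjusted p of 0.0696. With no filter, Ep300 also had a far smaller edgeR adjusted p, 1.07e-41 against 3.62e-05 as reported. Its log2 fold change was nearly the same (−1.05 against −1.04). The small p of Olr1 in that fit is therefore not read as stronger evidence of a fall. Without Ep300 siRNA replicate 1, the lowest library, its log2 fold change was −0.488 (edgeR adjusted p = 0.157). Without control siRNA replicate 2, the highest, it was −0.494 (edgeR adjusted p = 0.206).

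**Figure D2:**
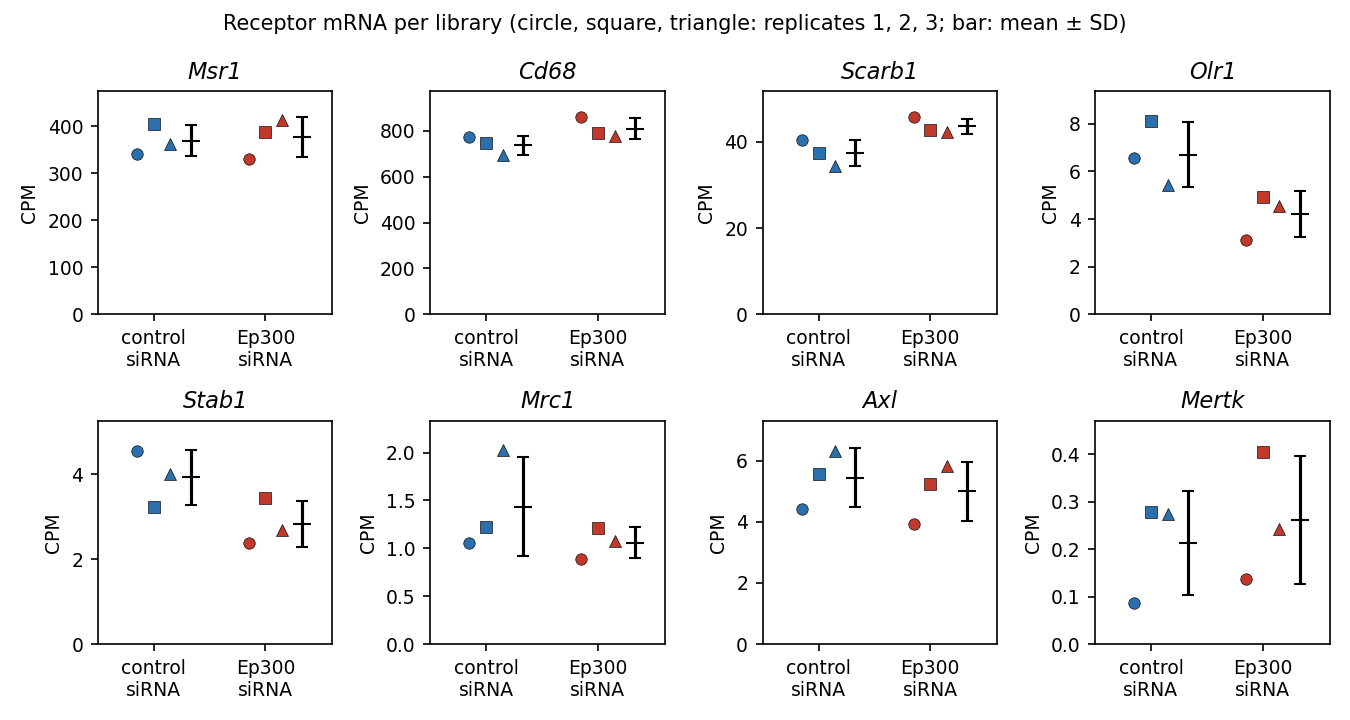
CPM (y axis, from 0) of 8 receptors in each control siRNA and Ep300 siRNA library, with the mean and SD (n = 3) of each group beside the points. Olr1 and Scarb1 separate the groups, in opposite directions, and Cd68 does so narrowly, in the direction of Scarb1. Msr1, Axl and Mertk overlap widely.

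Stab1 and Mrc1 had negative log2 fold changes, with wide intervals. Stab1 (chromosome 14, 31139013 to 31168641, minus strand) encodes stabilin-1, an endocytic receptor that clears extracellular matrix protein fragments and also binds apoptotic cells. It was at 2.39, 3.43 and 2.67 CPM in Ep300 siRNA replicates 1, 2 and 3 and at 4.54, 3.23 and 3.995 CPM in the controls. The groups overlapped through Ep300 siRNA replicate 2 and control siRNA replicate 2. The log2 fold change was −0.47 ± 0.18 (SE; edgeR adjusted p = 0.152), and −0.359 without Ep300 siRNA replicate 1. Exons of Nt5dc2 on the opposite strand share 112 bases with those of Stab1. Nt5dc2 held 457 to 1015 counts per library against 70 to 210 for Stab1, and no source used here states the strand setting of the counting, so it cannot be told to which gene reads in the shared bases were assigned.

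Mrc1 (chromosome 2, 14229392 to 14332057, plus strand), the mannose receptor CD206, was low in this line, at 26 to 74 counts per library. It was at 0.887, 1.21 and 1.08 CPM in Ep300 siRNA replicates 1, 2 and 3 and at 1.06, 1.23 and 2.03 CPM in the controls. Control siRNA replicate 3 was set apart from the other 5 libraries, which overlapped. The log2 fold change was −0.42 ± 0.29 (SE; edgeR adjusted p = 0.435), −0.093 without control siRNA replicate 3 and −0.307 without Ep300 siRNA replicate 1. Cd163 (chromosome 6, 124304656 to 124330527, plus strand), the haemoglobin-haptoglobin receptor, was too low to test. It had 0 counts in each Ep300 siRNA library and 2, 2 and 0 counts in control siRNA replicates 1, 2 and 3, all within what a count of 0 allows.

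Of the 2 efferocytosis kinases, Axl was measurable and Mertk was too low to test. Axl (chromosome 7, 25757273 to 25788705, minus strand) was at 3.92, 5.22 and 5.83 CPM in Ep300 siRNA replicates 1, 2 and 3 and at 4.43, 5.58 and 6.32 CPM in the controls. The groups overlapped over most of their range. The fold was 0.925 (95% interval 0.712 to 1.20; log2 fold change −0.11 ± 0.17, SE; edgeR adjusted p = 0.767), and the sign turned without Ep300 siRNA replicate 1 or control siRNA replicate 3. Mertk (chromosome 2, 128698956 to 128802894, plus strand) had 4, 14 and 9 counts in the Ep300 siRNA libraries and 4, 10 and 10 counts in the controls. Fitted with no filter on low counts, its log2 fold change was 0.34 ± 0.62 (SE; edgeR adjusted p = 0.841), too wide to place it on either side of 0.

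Levels of the receptors spanned several orders of magnitude when scaled by transcript length. In the control siRNA libraries, Cd68 was at 586 ± 32.6 CPM per kb of annotated exon (SD, n = 3), Msr1 at 58.2 ± 5.21 and Scarb1 at 4.40 ± 0.350. Olr1 followed at 1.87 ± 0.379 CPM per kb and Axl at 1.08 ± 0.190. Next came Stab1 at 0.381 ± 0.0635 and Mrc1 at 0.225 ± 0.0811 CPM per kb, which overlapped, and then Mertk at 0.0491 ± 0.0253. Cd163 and Marco, at the bottom, could not be ordered. Every other pair of neighbours in that order was apart in the control libraries, but Mertk and Cd163 by few counts. Mertk had 4 counts in control siRNA replicate 1, where Cd163 had 2, so the order of that pair is uncertain. After Ep300 siRNA, Olr1 was at 0.879, 1.38 and 1.28 and Axl at 0.779, 1.04 and 1.16 CPM per kb, so these receptors overlapped there. The order of the control means was the same with the longest transcript as the length, but the values depended on that choice. Msr1 was then at 101.6 and Scarb1 at 12.1 CPM per kb. Of the 10 levels, 4 moved by more than the SD of the control libraries and 6 did not. Cd68 and Msr1 together held 95.1% to 95.5% of the CPM of the 10 receptors in every library.

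**Figure D3:**
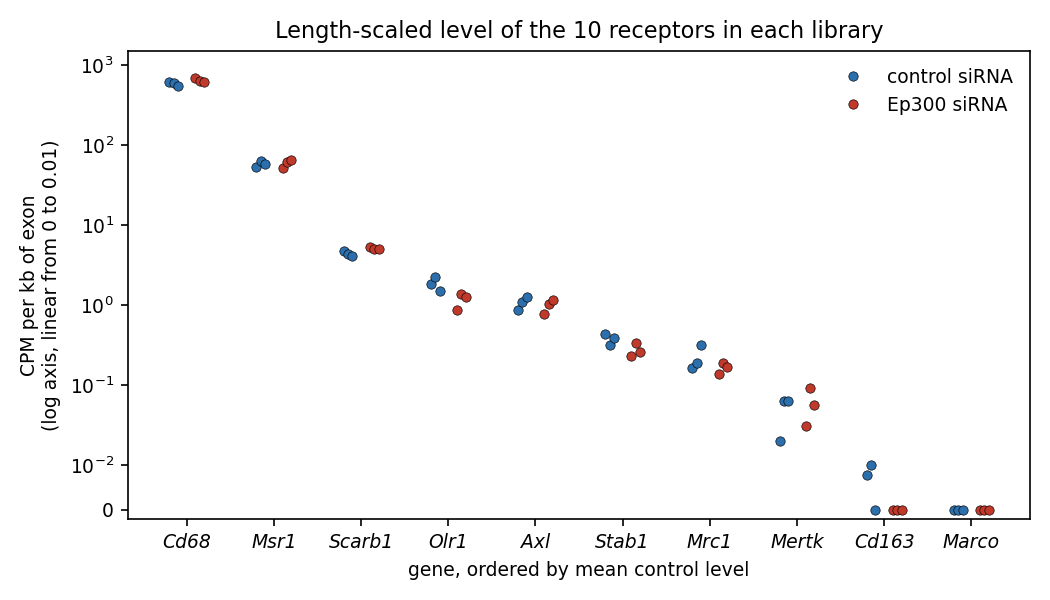
Level of each of the 10 receptors in each library, in CPM per kb of exon (y axis, logarithmic above 0.01 and linear below), with genes ordered by mean control level. Cd68 and Msr1 stand far above the rest, Mertk lies near the bottom, and Marco is at 0 in all 6 libraries.

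In Ep300 siRNA replicate 1 every tested receptor was at an end of its group's range. There, 5 of the 7 tested receptors (Msr1, Olr1, Stab1, Mrc1 and Axl) had their lowest value of that group, and the other 2, Scarb1 and Cd68, their highest. This is the library with the high Gm42418 level, whose part in these values was not tested. With 3 libraries in a group, 1 is always the lowest and another the highest. The share of all genes tested that lay at an end in this library was not computed, so these counts are a description. Leaving out 1 library at a time moved Olr1 between −0.785 and −0.488 on the log2 scale, Stab1 between −0.631 and −0.343, and Mrc1 between −0.605 and −0.0927. Over the same fits Scarb1 ran from 0.168 to 0.283 and Cd68 from 0.0952 to 0.174, and neither changed sign.

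**Figure D4:**
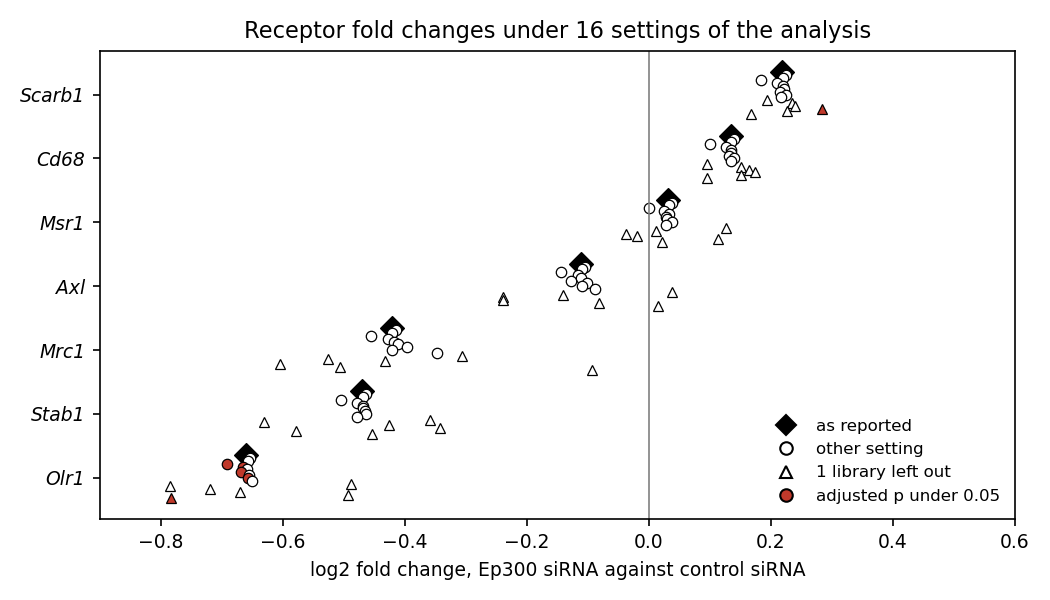
Log2 fold change (x axis) of the 7 tested receptors as reported and under 15 alternative settings, with triangles for fits that leave out 1 library. Filled red symbols mark an adjusted p under 0.05, which Olr1 reached in 5 alternatives and Scarb1 in 1.

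Promoter windows from RefSeq (GRCm38.p6), each from 250 bases before to 50 bases after the transcript start, were found for 8 of the 10 receptors, all but Msr1 and Scarb1. They were searched on both strands for 4 motifs of factors active in macrophages: TGACTCA (bound by AP-1, the dimers of Jun and Fos proteins), TGACGTCA (the cAMP response element), CACGTG (the E-box of the MiT/TFE factors) and GAGGAAGT (a PU.1 core). AP-1 letters were found in the windows of Olr1 and Cd68, and no other window held any of the 4. Of all 32851 windows, 5.2% hold the AP-1 letters, 1.79% the cAMP response element, 7.15% the E-box and 3.2% the PU.1 core. The windows of Olr1 and Cd68 are shown because they alone held any of the 4 motifs. Neither gene passed the threshold, and whether AP-1 bears on their levels was not tested. Capitals mark the AP-1 letters, which read TGAGTCA on the strand shown, from 5′ to 3′. The Olr1 window is chr6:129507116-129507415 and the Cd68 window is chr11:69666121-69666420, both on the minus strand.
Olr1: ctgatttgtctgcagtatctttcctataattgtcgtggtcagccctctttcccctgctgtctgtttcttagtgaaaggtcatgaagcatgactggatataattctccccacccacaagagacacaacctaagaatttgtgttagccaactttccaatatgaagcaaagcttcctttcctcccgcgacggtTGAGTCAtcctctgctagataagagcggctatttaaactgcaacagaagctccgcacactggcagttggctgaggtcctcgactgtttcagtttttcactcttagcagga
Cd68: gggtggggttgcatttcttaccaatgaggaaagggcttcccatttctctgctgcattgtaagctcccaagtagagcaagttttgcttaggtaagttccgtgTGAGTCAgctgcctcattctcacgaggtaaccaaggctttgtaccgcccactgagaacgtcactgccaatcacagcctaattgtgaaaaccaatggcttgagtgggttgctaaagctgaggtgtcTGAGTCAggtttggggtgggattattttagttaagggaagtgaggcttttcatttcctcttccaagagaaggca

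The match in Olr1 begins 60 bases before the transcript start, and those in Cd68 begin 149 and 24 bases before it. Jun, a subunit of AP-1, fell from 132 ± 3.29 to 97.8 ± 6.08 CPM (SD, n = 3; edgeR adjusted p = 0.00258), and Fos from 25.2 ± 2.03 to 17.2 ± 2.73 CPM (edgeR adjusted p = 0.0135). The call of Fos was lost without control siRNA replicate 3 (edgeR adjusted p = 0.0533). A match of letters is a description of the window, and binding there was not measured.

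Among the partners of these receptors, Gas6, the bridging protein that activates Axl and Mertk, fell to 0.59 of its control level. It was at 48.1, 44.1 and 45.0 CPM in Ep300 siRNA replicates 1, 2 and 3 and at 86.6, 73.8 and 71.7 CPM in the controls, with the groups well apart (log2 fold change −0.76 ± 0.08, SE; edgeR adjusted p = 0.000437). Pros1, which encodes the other bridging protein, protein S, was at −0.09 ± 0.08 (SE; edgeR adjusted p = 0.552), and Tyro3, the third kinase of the family, at −0.42 ± 0.40 (SE; edgeR adjusted p = 0.593). Pros1 and Tyro3 were singled out after their values were seen, to complete that set. Havcr2, which encodes the phosphatidylserine receptor TIM-3, fell from 190.6 ± 13.8 to 118 ± 3.88 CPM (SD, n = 3; edgeR adjusted p = 0.000283). Whether the change of Gas6 differed from that of Axl was not tested.

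Over 6 lists of related genes, 68 of 89 were high enough to test, of which 2 rose and 10 fell. Over all genes tested, 2.76% rose and 4.02% fell, with a median log2 fold change of −0.004. Those values stand beside the counts of the fit as reported only. Over the same 15741 genes, 617 rose and 712 fell by DESeq2, and 440 rose and 603 fell by limma-voom. With 1 library left out, 202 to 447 rose and 280 to 607 fell, of 16078 to 16237 genes tested. These lists, like the receptors, were drawn up with earlier results of these data known, so their counts are a description. Among 12 tested scavenger receptors outside the 10, 1 rose and 1 fell (median 0.02). The number that rose there was 0 when control siRNA replicate 3, Ep300 siRNA replicate 1 or Ep300 siRNA replicate 2 was dropped, 2 when control siRNA replicate 1 was, and 3 by DESeq2. The number that fell was 2 by DESeq2 and when control siRNA replicate 3 or Ep300 siRNA replicate 1 was dropped. Clec7a, the beta-glucan receptor dectin-1, fell to 0.617 (65.6 ± 9.94 to 40.4 ± 2.95 CPM, SD, n = 3; edgeR adjusted p = 0.0025). Among 14 tested efferocytosis receptors, 3 fell and none rose (median −0.23): Havcr2 and the integrin chains Itgav, to 0.848, and Itgb3, to 0.732. The number that fell in that list was 6 by DESeq2, and 1 without control siRNA replicate 2 or any one of the 3 Ep300 siRNA libraries. Of 7 tested bridging molecules and signals of dying cells, 2 fell and none rose (median −0.09), Gas6 and the phospholipid-binding protein Anxa1, to 0.835. By DESeq2 2 of those 7 rose, and by limma-voom 1 did, as did 1 without control siRNA replicate 1. The number that fell there was 1 when any single library other than Ep300 siRNA replicate 3 was left out. The bridging protein Mfge8 (log2 fold change 0.31 ± 0.09, SE; edgeR adjusted p = 0.0677) and the chaperone Calr (0.29 ± 0.08, SE; edgeR adjusted p = 0.0522), singled out after their values were seen, did not pass, although all their Ep300 siRNA libraries lay above all controls, for Mfge8 narrowly (lowest Ep300 siRNA library 35.3 CPM, highest control 35.2 CPM). Of 16 genes of the engulfment machinery, the small GTPase Rac1 rose 1.22-fold and the exchange factor Vav3 fell to 0.85 (median −0.001). In that list 0 rose and 0 fell when any single library other than control siRNA replicate 1 was left out. None of 5 tested genes of receptor shedding passed edgeR's adjusted p, and none had an unadjusted p under 0.05, the smallest being that of Rhbdf1 (log2 fold change 0.27 ± 0.15, SE). None of those 5 passed by DESeq2 or limma-voom. Of 14 tested transcription factors known to act on such genes, 3 fell and none rose (median 0.01), Jun and Fos among them.

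**Figure D5:**
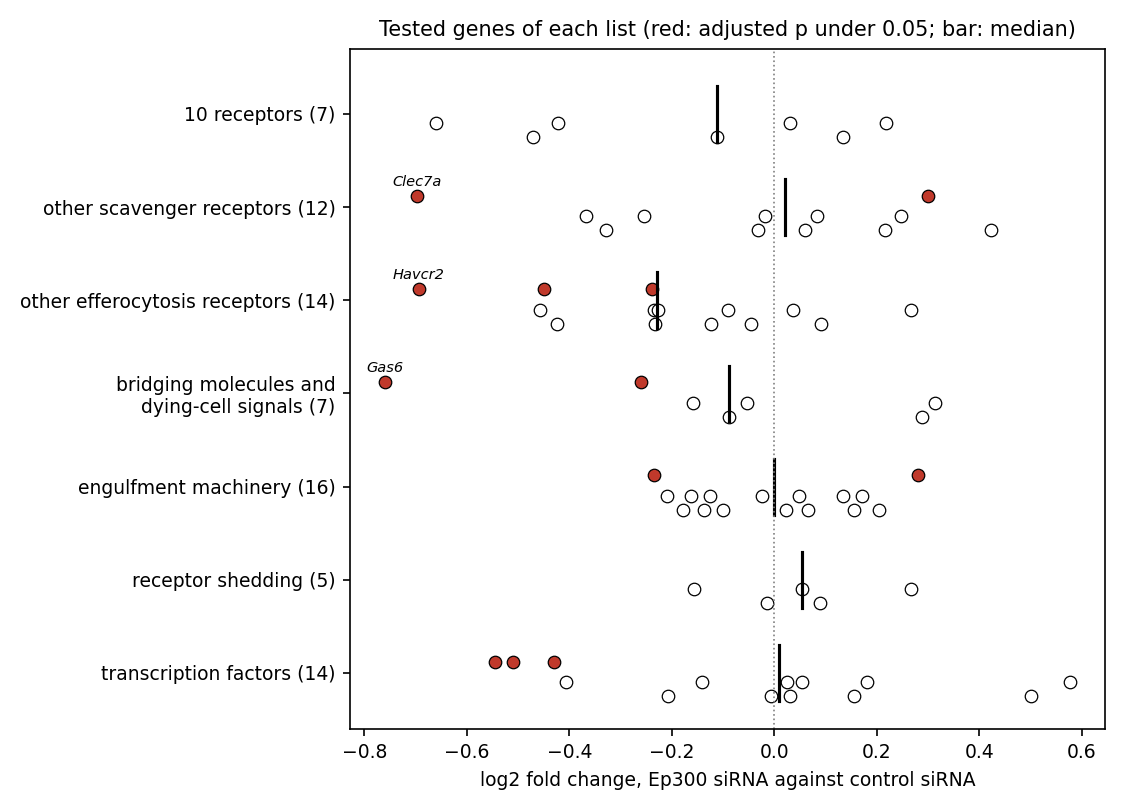
Log2 fold change (x axis) of every tested gene of the receptor set and of the 6 lists of related genes, with the number tested in brackets and the median as a bar. Red points are genes past an edgeR adjusted p of 0.05, none of them in the receptor set, with Gas6, Clec7a and Havcr2 farthest to the left.

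Of those 12 genes, 5 kept their call in all 15 alternatives, Gas6, Havcr2, Clec7a and Jun among them. The other 7 lost it in at least 1. Itgav and Itgb3 lost theirs whichever of the 6 libraries was dropped, with edgeR adjusted p values of at most 0.123 and 0.157. Anxa1, Rac1 and Vav3 each lost theirs with 5 of the 6 (up to 0.188, 0.103 and 0.159). Anxa1 also lost it with RLE scaling (edgeR adjusted p = 0.0539) and Rac1 with library sizes alone (edgeR adjusted p = 0.0537). Over the whole table, 633 genes fell as reported and 280 to 607 with 1 library left out. With 1 library left out, log2 fold changes kept their sign. Itgav ran from −0.269 to −0.21, Itgb3 from −0.539 to −0.358 and Anxa1 from −0.314 to −0.204. Vav3 ran from −0.262 to −0.188 and Rac1 from 0.245 to 0.342.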

How the data were processed

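Raw read counts per gene symbol were deposited by the authors, 1 column per library, and columns were matched to samples by name. Tools named in the submitters' processing notes are STAR 2.5.3a, fastp 0.23.4, edgeR 3.12.1 and featureCounts, with GRCm38 as the build; the annotation and the strand and multimapping settings are not given in these sources. Even numbers made up 79.8% to 80.9% of counts from 1 to 4, so a fit on halved counts was run as an alternative. Replicates differed by more than sampling noise (9.19 to 32.9 as chi-square over degrees of freedom).

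Genes were tested with edgeR 4.0.16 (R 4.3.3): filterByExpr (minimum count 10), TMM scaling and a two-sided quasi-likelihood F-test on all 6 libraries with no covariate, adjusted by Benjamini-Hochberg over 15741 genes. Genes that the filter removed are called too low to test. Standard errors come from the fold change and F statistic. The step was checked on counts drawn from the real means. Alternatives were RLE, upper-quartile and no scaling, no filter, DESeq2 1.42.0, a filter of 1 CPM in 3 libraries, limma-voom (limma 3.58.1), a block for the replicate number, halved counts and each library left out. Coordinates and lengths (union of exons) are from GENCODE M21 (GRCm38), and figures used matplotlib 3.10.9.

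The receptors and lists were chosen with earlier results of these data known. Named genes are the 10 receptors, Ep300 and, from each list, up to 3 genes per direction with the smallest p past the threshold, or the 1 with the smallest p where none passed; a search for genes with a like pattern was to start from receptors past the threshold, and none was. Genes that the rule picked but that are not named are not reported here. Protein sequences were not used here.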

Additional observations from a re-analysis of the deposited data

How the results depend on the processing

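Ep300 stayed past the threshold in all 15 alternatives. No receptor rose and none fell as reported, and Olr1 was the 1 that fell with library sizes alone (log2 fold change −0.691), no filter on low counts (−0.666), the replicate block (−0.668, edgeR adjusted p = 0.0234) and DESeq2 (−0.657). With 1 library left out, 0 to 1 receptors rose and 0 to 1 fell: Scarb1 reached 0.283 without control siRNA replicate 1 (range 0.168 to 0.283), and Olr1 −0.784 without control siRNA replicate 3 (range −0.785 to −0.488). Values near 0 changed sign without passing: Msr1 was at −0.000409 with library sizes alone, −0.0382 without Ep300 siRNA replicate 3 and −0.0201 without control siRNA replicate 1 (range −0.0382 to 0.127), and Axl at 0.038 without Ep300 siRNA replicate 1 and 0.0146 without control siRNA replicate 3 (range −0.24 to 0.038). The cause was not tested. Over the whole table, 730 genes rose and 991 fell with no filter, which tests 30207 genes, and with 1 library left out 202 to 447 rose and 280 to 607 fell. As reported, 435 rose and 633 fell there. The numbers that rose and fell were 580 and 777 with the replicate block and 617 and 712 by DESeq2. They were 440 and 603 by limma-voom and 316 and 788 with library sizes alone. In the 6 related lists, 2 genes rose and 10 fell as reported. The number that rose was 1 with library sizes alone, 10 with no filter, 7 with the replicate block, 6 by DESeq2, 4 by limma-voom and 0 to 4 with 1 library left out. The number that fell was 17 with no filter and 6 to 8 with 1 library left out. Same-numbered libraries did not deviate together (correlation of deviations 0.087, 0.0198 and −0.0466 for replicates 1, 2 and 3), so the numbers were not taken to pair samples. Mertk, Cd163 and Marco held no more than 14 counts in any library.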
